A study of Mus musculus with 6 samples.

Results

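The 9 genes described here were chosen by symbol and matched to their Ensembl gene IDs among the 47729 genes counted in each library. They are called neutrophil granule genes as a label, although not every product is stored in granules. The early, or primary, granule genes are Mpo, Elane, Prtn3, Ctsg and Ms4a3, and the later granule genes are Ngp, Ltf, S100a8 and S100a9. Of these 9 genes, 7 had enough reads to be tested, namely the 5 early genes and Ngp and Ltf, while S100a8 and S100a9 are described by their counts. RNA came from sorted DN1a/b thymocytes of C57BL/6 mice, in 3 groups of 2 libraries each. Mice labelled RBPJ 6 days induced had first lacked RBPJ and then regained it through doxycycline, injected at 2 mg/ml and continued in drinking water at 1 mg/ml. By their labels, RBPJ uninduced mice lacked RBPJ and Control mice had kept it throughout. The labels used here name no allele, no promoter for the inducible RBPJ, no age and no doxycycline for the other groups, so in every comparison with induced libraries RBPJ and doxycycline cannot be told apart. They also do not state that replicates 1 and 2 of a group are different mice, and the p-values therefore reflect library-to-library spread, which may be technical.

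Neutrophils build their granules in sequence while they mature in the bone marrow. Azurophil granules form first, at the promyelocyte stage, and hold myeloperoxidase and a set of serine proteases, and specific granules form later, at the myelocyte stage, and hold lactoferrin and related antimicrobial proteins. S100A8 and S100A9, which together form calprotectin, are stored mostly in the cytosol and accumulate with the later steps. DN1 thymocytes include the earliest progenitors of the thymus, which can still give rise to myeloid cells until Notch signals, passed on by the DNA-binding protein RBPJ, direct them to the T lineage.

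The libraries held 11090902 and 11240828 counts in the RBPJ 6 days induced group, 5098927 and 10918205 in the RBPJ uninduced group, and 12932928 and 5311391 in Control. Rbpj, which can share reads with its processed pseudogenes, stood at 198 and 203 CPM (reads scaled to a common library total of 1e+06) in induced, 28.2 and 30.0 CPM in uninduced and 74.1 and 72.9 CPM in Control libraries, in the order of the labels. The uninduced mean was 0.396 of the Control mean, so that Rbpj reads were fewer and not absent. The induced mean of 201 CPM was above the Control mean of 73.5 CPM, so that Rbpj reads did not return to the Control level but exceeded it. The DN1 markers Kit, Cd44, Flt3 and Cd24a were present in all 6 libraries, with Kit between 372 and 631 CPM. Flt3 varied more, at 176 and 149 CPM in induced, 56.2 and 20.7 CPM in uninduced and 168 and 88.3 CPM in Control libraries. Il2ra, listed as low in DN1a/b cells, stood at 29.0 and 38.5 CPM in induced libraries. It stood at 0.522 and 23.5 CPM in uninduced and 30.2 and 15.9 CPM in Control libraries. Uninduced replicate 2 stood apart: its 9 B-lineage genes summed to 819 CPM, against 32.3 CPM in uninduced replicate 1 and 7.16 to 44.7 CPM elsewhere, and its 11 erythroid genes to 574 CPM, against 193 CPM in replicate 1. Control replicate 2 held more RNA of later T cells than Control replicate 1, with Bcl11b at 131 and 5.10 CPM. In uninduced replicate 2, 16.5% of counts fell on mitochondrial ribosomal RNA, against 9.26% to 12.4% in the other 5 libraries.

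The 5 early genes lie at 4 loci of mm10. Mpo is on chromosome 11 (87793581 to 87804413, plus strand), Ctsg on chromosome 14 (56099881 to 56102574, minus strand) and Ms4a3 on chromosome 19 (11629496 to 11640851, minus strand). Prtn3 (79874476 to 79883174) and Elane (79886247 to 79888215) follow each other on the plus strand of chromosome 10 with 3072 bases between them. Of the later genes, Ngp (110419747 to 110423012) and Ltf (111019271 to 111042767) share the plus strand of chromosome 9 at a distance of 596.3 kb, and S100a8 (90668978 to 90670035, plus strand) and S100a9 (90692632 to 90695721, minus strand) are 22.6 kb apart on chromosome 3. Mpo overlaps the antisense gene Gm11505 and Prtn3 overlaps Plppr3 on the opposite strand, and because no source used here gives the strand setting of the counting, reads from these overlaps cannot be told apart.

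Promoter windows of all 9 genes were found in RefSeq on GRCm38.p6. The stretches below lie before the RefSeq start and are shown because they hold the letters AGGAAGT, the core that the myeloid factor PU.1 binds, which occur in 4 of the 5 early genes and 1 of the 4 later genes. Capitals mark those letters, or ACTTCCT where they lie on the other strand, and bases that GENCODE places in an exon are left out.
Mpo, chr11:87793534-87793580, plus strand: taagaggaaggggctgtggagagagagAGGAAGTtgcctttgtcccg
Elane, chr10:79886062-79886246, plus strand: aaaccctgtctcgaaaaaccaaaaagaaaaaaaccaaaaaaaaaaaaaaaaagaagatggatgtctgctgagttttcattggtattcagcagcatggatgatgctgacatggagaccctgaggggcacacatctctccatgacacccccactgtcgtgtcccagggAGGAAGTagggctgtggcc
Prtn3, chr10:79879417-79879613, plus strand: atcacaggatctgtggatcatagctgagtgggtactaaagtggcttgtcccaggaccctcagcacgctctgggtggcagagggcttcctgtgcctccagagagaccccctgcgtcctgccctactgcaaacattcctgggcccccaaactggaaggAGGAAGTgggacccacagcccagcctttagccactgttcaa
Ctsg, chr14:56102575-56102824, minus strand: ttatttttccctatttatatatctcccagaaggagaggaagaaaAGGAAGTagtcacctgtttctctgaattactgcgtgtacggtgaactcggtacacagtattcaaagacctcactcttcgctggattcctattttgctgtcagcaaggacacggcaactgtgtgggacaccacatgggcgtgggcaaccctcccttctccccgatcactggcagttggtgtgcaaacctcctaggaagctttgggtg
S100a8, chr3:90668821-90668977, plus strand: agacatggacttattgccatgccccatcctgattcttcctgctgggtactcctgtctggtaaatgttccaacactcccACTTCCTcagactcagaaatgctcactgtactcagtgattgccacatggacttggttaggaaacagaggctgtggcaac
The match began 223 bases before the RefSeq start in Mpo, 84 in Elane, 94 in Prtn3, 206 in Ctsg and 172 in S100a8. Over 250 bases before each start and on both strands, AGGAAGT was present in 7.80% of 27025 mouse promoters. The C/EBP type TTNNGNAAT was found in 0 of 5 early and 3 of 4 later genes (Ngp, Ltf and S100a9) and in 10.3% of all promoters. The shorter C/EBP core GCAAT, which overlaps that match in Ngp and Ltf, was found in 2 of 5 early and 4 of 4 later genes and in 23.3% of all promoters. The MYB type AACGG was found in Elane and Prtn3 and in 14.8% of all promoters, and the RBPJ type GTGGGAA in Ms4a3 alone of the 9 genes and in 5.41% of all promoters. The AACGG matches began 50 bases before the start in Elane and 55 in Prtn3, and the GCAAT matches 57 in Elane and 56 in Mpo. These matches lie in or across exon bases left out of the stretches above. The Prtn3 window lies inside the GENCODE span of that gene, so the RefSeq start and the start of that span differ. The motif letters were chosen after these windows had been read, and a match describes the sequence without showing that a factor binds there.

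The early granule genes were highest in RBPJ uninduced libraries, intermediate after 6 days of induction and lowest in Control, and this order held for each of the 5 genes with no overlap between any pair of groups, as it did for 4.18% of all genes tested. Mpo, which encodes the peroxidase that makes hypochlorous acid, stood at 604 and 1300.4 CPM in induced, 3712 and 2718 CPM in uninduced and 495 and 420.5 CPM in Control libraries. Elane, which encodes neutrophil elastase, stood at 20.1 and 96.7 CPM in induced, 238 and 179 CPM in uninduced and 5.71 and 11.3 CPM in Control libraries. Both induced libraries lay between the other groups for these genes, with replicate 2 above replicate 1. Prtn3, which encodes proteinase 3, a close relative of elastase, stood at 12.2 and 46.1 CPM in induced, 124 and 115 CPM in uninduced and 3.12 and 6.55 CPM in Control libraries. Ctsg, which encodes the serine protease cathepsin G, stood at 32.2 and 72.7 CPM in induced, 188 and 134 CPM in uninduced and 6.40 and 16.5 CPM in Control libraries. Ms4a3, whose membrane protein marks granulocyte and monocyte progenitors in mice, stood at 3.89 and 12.9 CPM in induced, 53.0 and 29.6 CPM in uninduced and 0.228 and 2.30 CPM in Control libraries. The lowest of these values, Ms4a3 in Control replicate 1, rested on 3 reads.

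**Figure D1:**
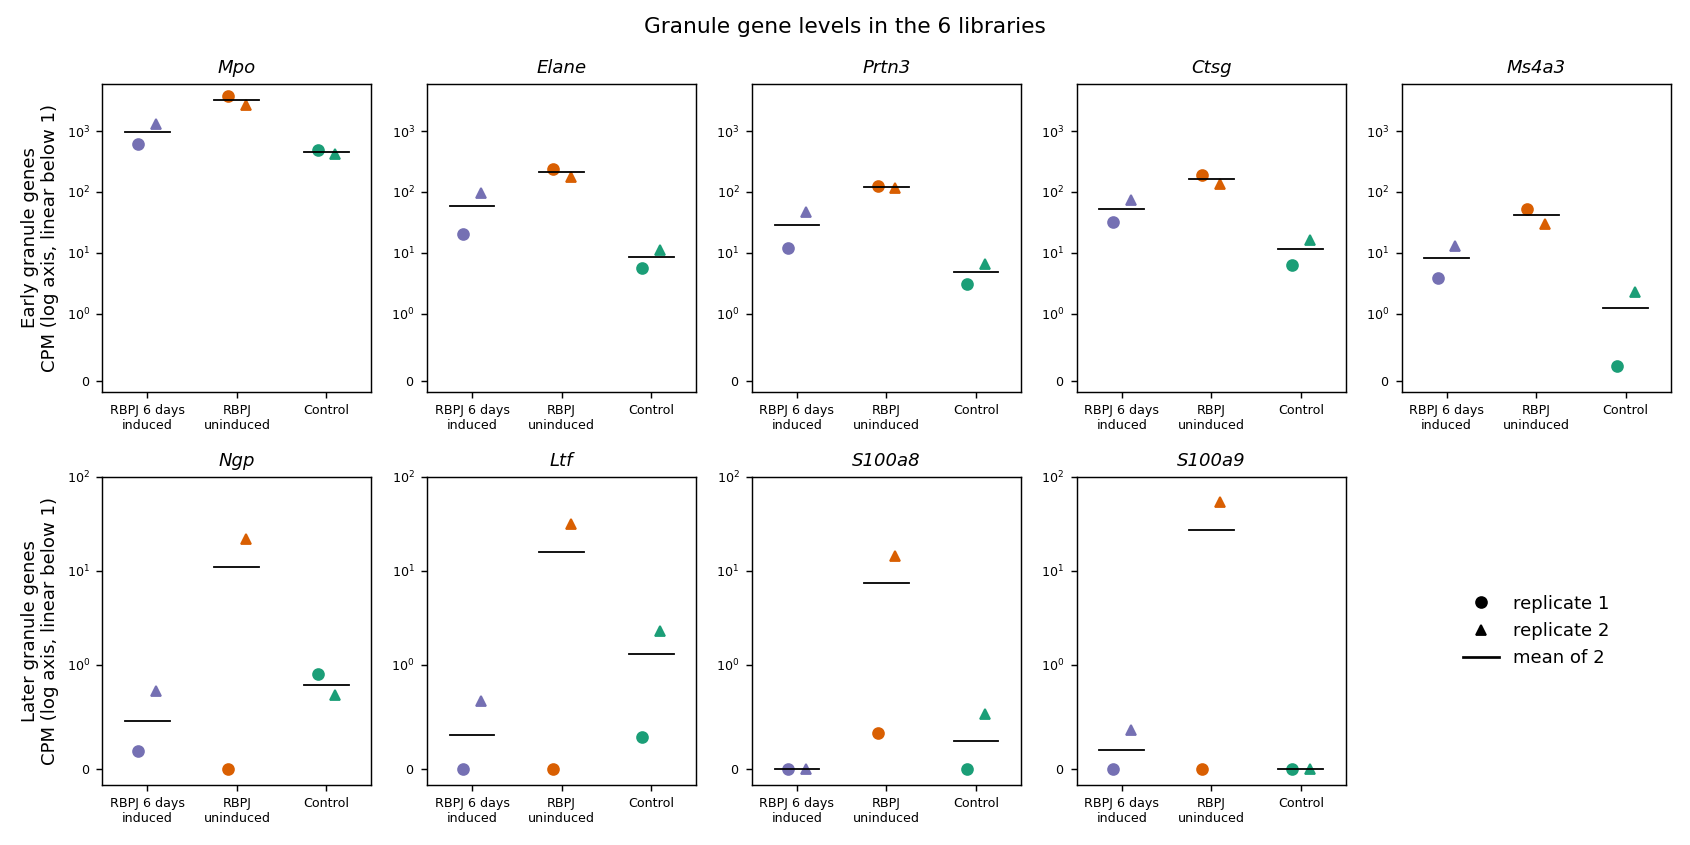
Level of each granule gene in CPM (vertical axes, logarithmic above 1 and linear below) in RBPJ 6 days induced, RBPJ uninduced and Control libraries, with circles and triangles for replicates 1 and 2 and a line at the mean of 2. The early genes in the upper row are highest in both uninduced libraries, whereas the later genes in the lower row are high in uninduced replicate 2 alone, with S100a9 at 54.4 CPM there.

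When RBPJ uninduced libraries were set against Control, to follow the loss of RBPJ, all 5 early genes were higher in uninduced libraries by edgeR's quasi-likelihood test at a Benjamini-Hochberg adjusted p under 0.05. Of the 18174 genes tested, 2.49% were higher and 2.93% lower in that comparison, and for 22.1% both uninduced libraries lay above both Control libraries. Mpo averaged 3215 ± 703 CPM in uninduced and 458 ± 52.4 CPM in Control libraries (SD, n = 2 each), a ratio of 7.03 and a log2 fold change of 2.81 (SE 0.335, edgeR adjusted p = 0.00249). The fold of the other 4 genes was larger, on a lower level. Elane averaged 208 ± 42.3 CPM in uninduced and 8.52 ± 3.97 CPM in Control libraries, with a log2 fold change of 4.66 (SE 0.684, edgeR adjusted p = 0.00610). Prtn3 averaged 119 ± 6.81 CPM in uninduced and 4.83 ± 2.42 CPM in Control libraries, with a log2 fold change of 4.70 (SE 0.624, edgeR adjusted p = 0.00403). Ctsg averaged 161 ± 37.6 CPM in uninduced and 11.4 ± 7.11 CPM in Control libraries, with a log2 fold change of 3.87 (SE 0.512, edgeR adjusted p = 0.00398). Ms4a3 had the highest fold of the 5 and also the widest error, averaging 41.3 ± 16.5 CPM in uninduced and 1.26 ± 1.46 CPM in Control libraries (log2 fold change 5.28, SE 0.933, edgeR adjusted p = 0.0135).

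The median log2 fold change of the 5 early genes was 4.66, beside -0.02 over all genes tested, and whether more cells of a granule-bearing type or more RNA per cell lies behind it cannot be told apart in bulk samples. Without uninduced replicate 2, the library that stood apart, all 5 early genes were again higher, with log2 fold changes from 2.998 for Mpo to 5.70 for Ms4a3. Without Control replicate 1, Elane (4.20, edgeR adjusted p = 0.0682) and Ms4a3 (4.16, edgeR adjusted p = 0.0691) were not past the threshold, and Prtn3 (4.19) and Ctsg (3.29) were. Without Control replicate 2 the fold changes were larger for the 3 proteases and Ms4a3, at 5.10 for Elane, 5.17 for Prtn3, 4.57 for Ctsg and 7.34 for Ms4a3, and smaller for Mpo, at 2.62.

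The later granule genes did not follow the early ones, and their reads came almost entirely from uninduced replicate 2. Together they had 2 and 19 counts in induced libraries, 2 and 1101 counts in uninduced libraries and 16 and 20 counts in Control libraries. Ngp, which encodes a neutrophil granule protein of the cathelicidin and cystatin type, stood at 0.177 and 0.745 CPM in induced, 0 and 22.1 CPM in uninduced and 0.914 and 0.708 CPM in Control libraries. Ltf, which encodes the iron-binding protein lactoferrin, stood at 0 and 0.652 CPM in induced, 0 and 31.8 CPM in uninduced and 0.305 and 2.30 CPM in Control libraries. In both genes uninduced replicate 1 was the lowest library or level with the lowest, and replicate 2 the highest. S100a8 had 0 and 0 counts in induced, 2 and 130 counts in uninduced and 0 and 3 counts in Control libraries. S100a9 had 0 and 4 counts in induced, 0 and 488 counts in uninduced and 0 and 0 counts in Control libraries. For scale, 3 counts, the limit that a count of 0 allows, equal 0.522 CPM in uninduced replicate 1, and intervals and limits cover counting error only.

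By test, 0 of the 2 later genes that could be tested were called between uninduced and Control libraries. Ngp had a log2 fold change of 3.73 (SE 1.71, edgeR adjusted p = 0.282) and an unadjusted p of 0.0557, and Ltf had 3.73 (SE 1.88, edgeR adjusted p = 0.334) and an unadjusted p of 0.0769. DESeq2 called neither. Without uninduced replicate 2 the direction turned round in both, to -5.96 for Ngp (edgeR adjusted p = 0.508) and -6.59 for Ltf (edgeR adjusted p = 0.488), values that rest on 0 counts in the remaining uninduced library. Without uninduced replicate 1 both passed, with log2 fold changes of 4.65 for Ngp (edgeR adjusted p = 0.00413) and 4.73 for Ltf (edgeR adjusted p = 0.0132).

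The uninduced replicates differed far more in the later genes than in the early ones. On the scale of log2(CPM + 0.5), replicate 2 minus replicate 1 was 5.50 for Ngp, 6.01 for Ltf, 4.14 for S100a8 and 6.78 for S100a9, beside a median of 0.10 over all genes tested, and 0.0110% of tested genes differed by as much as S100a9 or more. The same difference was -0.45 for Mpo, -0.42 for Elane, -0.12 for Prtn3, -0.48 for Ctsg and -0.83 for Ms4a3, and 62.0% to 82.6% of tested genes had a difference at or above these. The B-lineage list, like the later genes, was higher in replicate 2 in all 9 members, and the part of B-lineage cells in the difference between the replicates was not tested.

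**Figure D2:**
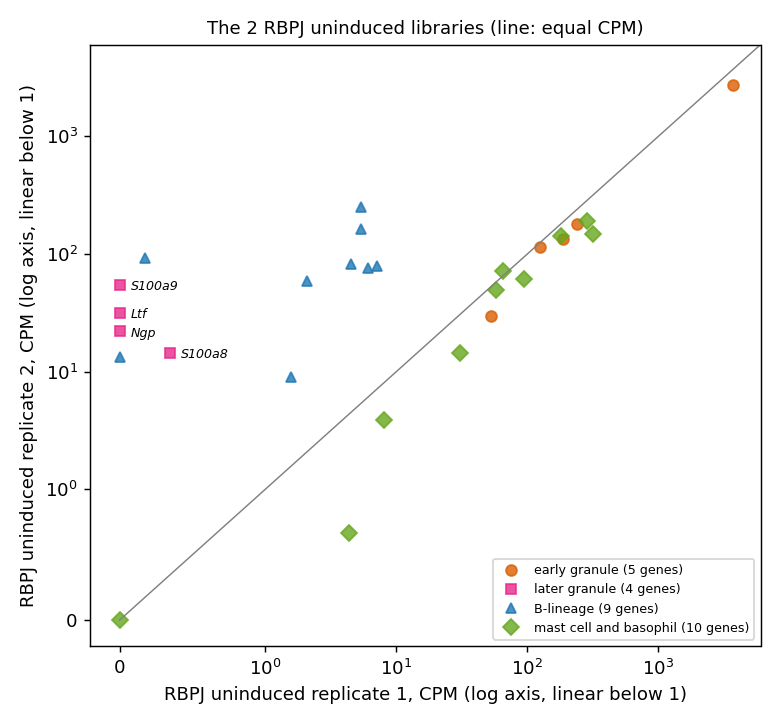
CPM in RBPJ uninduced replicate 2 (vertical axis) against RBPJ uninduced replicate 1 (horizontal axis), both logarithmic above 1 and linear below, for early granule, later granule, B-lineage and mast cell and basophil genes. Early granule genes lie near the line of equal CPM, whereas the later granule genes lie far above it, from 14.5 CPM for S100a8 to 54.4 CPM for S100a9.

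When RBPJ 6 days induced libraries were set against RBPJ uninduced libraries, to follow the return of RBPJ, Mpo fell and the other 4 early genes lay lower without passing the test. Of all genes tested, 0.413% were lower and 1.55% higher by edgeR. Mpo averaged 952 ± 493 CPM in induced and 3215 ± 703 CPM in uninduced libraries (SD, n = 2 each), with a log2 fold change of -1.76 (SE 0.322, edgeR adjusted p = 0.0307). Elane averaged 58.4 ± 54.1 CPM in induced libraries and had a log2 fold change of -1.84 (SE 0.587, edgeR adjusted p = 0.163). Prtn3 averaged 29.2 ± 24.0 CPM in induced libraries, with -2.04 (SE 0.533, edgeR adjusted p = 0.0987), and Ctsg 52.5 ± 28.6 CPM, with -1.62 (SE 0.455, edgeR adjusted p = 0.120). Ms4a3 averaged 8.37 ± 6.34 CPM in induced libraries, with -2.30 (SE 0.756, edgeR adjusted p = 0.174). The 5 fold changes thus lay close together, with a median of -1.84 beside -0.03 over all genes, and both induced libraries were below both uninduced libraries for each of the 5, as they were for 21.8% of genes tested.

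The induced replicates differed more from each other than the uninduced replicates did in these genes. The higher induced library held 2.15 times the lower for Mpo, 4.80 times for Elane, 3.78 times for Prtn3, 2.25 times for Ctsg and 3.31 times for Ms4a3, whereas in the uninduced group the ratios ran from 1.08 for Prtn3 to 1.79 for Ms4a3 and in Control from 1.18 for Mpo to 10.1 for Ms4a3. On the scale of log2(CPM + 0.5), the difference for Elane of 2.24 was reached by 0.528% of genes tested. Mpo was not past the threshold without induced replicate 1 (-1.31, edgeR adjusted p = 0.224) or without Control replicate 1 (-1.76, edgeR adjusted p = 0.0533). Without induced replicate 2 the log2 fold change was -2.36 for Mpo, -3.32 for Elane and -3.24 for Prtn3, all 3 past the threshold, and without uninduced replicate 2 Mpo (-1.96) and Ctsg (-1.84) passed. Of the later genes, Ngp (-4.56, edgeR adjusted p = 0.252) and Ltf (-5.58, edgeR adjusted p = 0.226) were not called, and without uninduced replicate 2 both fold changes were above 0, at 5.13 and 4.65.

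Against Control, the induced libraries still had higher CPM of all 5 early genes, and none of the 5 passed edgeR's test, although all 5 had an unadjusted p under 0.05. In this comparison 0.187% of genes tested were higher and 0.0% lower by edgeR, and 5.17% had an unadjusted p under 0.05 in either direction. Mpo had a log2 fold change of 1.06 (SE 0.317, unadjusted p = 0.00831, edgeR adjusted p = 0.463), with 952 ± 493 CPM in induced and 458 ± 52.4 CPM in Control libraries. Elane had a log2 fold change of 2.83 (SE 0.645, unadjusted p = 0.00160, edgeR adjusted p = 0.195) and Prtn3 one of 2.66 (SE 0.591, unadjusted p = 0.00134, edgeR adjusted p = 0.177). Ctsg had a log2 fold change of 2.25 (SE 0.487, unadjusted p = 0.00113, edgeR adjusted p = 0.170) and Ms4a3 one of 2.98 (SE 0.900, unadjusted p = 0.00855, edgeR adjusted p = 0.467). Both induced libraries lay above both Control libraries for each of the 5, as they did for 20.8% of genes tested. Without induced replicate 1, the lower of the 2, Elane (3.55, edgeR adjusted p = 0.0260) and Prtn3 (3.31, edgeR adjusted p = 0.0354) passed. Without induced replicate 2, the higher of the 2, the fold changes were 0.37 for Mpo, 1.25 for Elane, 1.36 for Prtn3, 1.51 for Ctsg and 1.81 for Ms4a3, each with an edgeR adjusted p of 1.0. Without Control replicate 1 they lay between 1.18 for Mpo and 2.37 for Elane and without Control replicate 2 between 0.91 for Mpo and 5.08 for Ms4a3, and none passed in either fit. Without uninduced replicate 1, Elane, Prtn3 and Ctsg passed, and without uninduced replicate 2 Ctsg alone passed (edgeR adjusted p = 0.0337). DESeq2 with all 6 libraries called Prtn3 and Ctsg. The later genes were near 0 in both groups, with log2 fold changes of -0.82 for Ngp and -1.85 for Ltf and an adjusted p of 1.0 for each by edgeR.

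**Figure D3:**
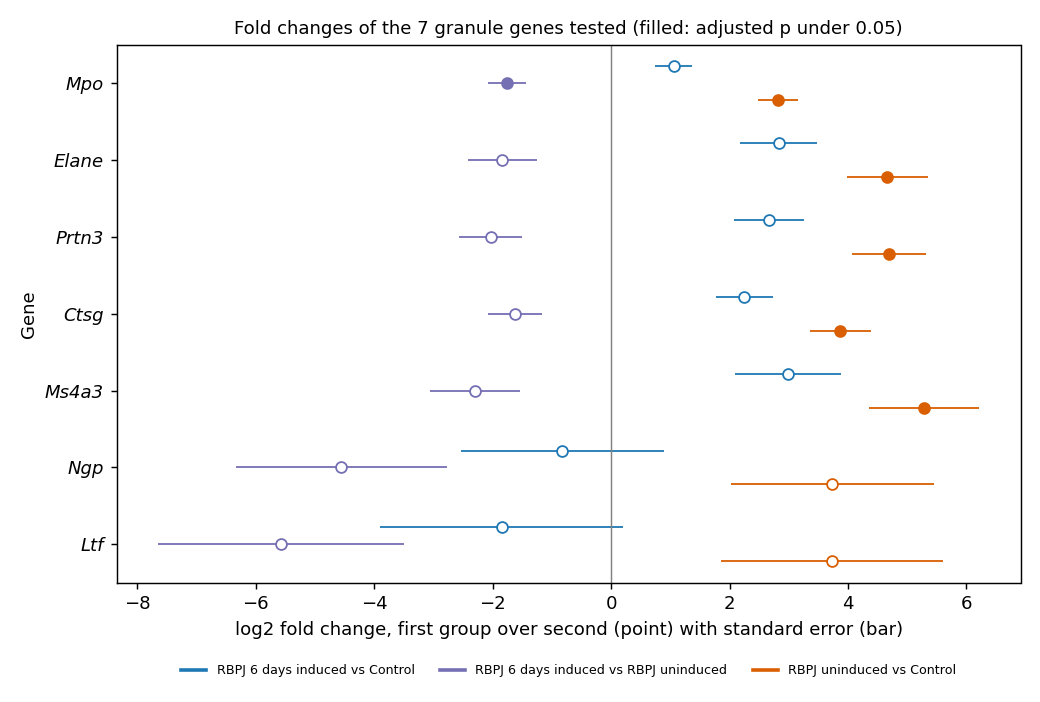
Log2 fold change (horizontal axis) of the 7 granule genes tested, with its standard error as a bar, in RBPJ 6 days induced vs Control, RBPJ 6 days induced vs RBPJ uninduced and RBPJ uninduced vs Control, where filled points have an adjusted p under 0.05. All 5 early genes are filled in RBPJ uninduced vs Control, Mpo alone is filled after induction at -1.76, and the bars of Ngp and Ltf are the widest.

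Set against all reads, the 5 early genes together took 0.0686% and 0.146% of the counts in induced libraries, 0.487% and 0.261% in uninduced libraries and 0.0518% and 0.0487% in Control libraries. The 95% exact binomial intervals of these shares were narrow, at 0.481% to 0.493% for uninduced replicate 1 and 0.0468% to 0.0506% for Control replicate 2. Mpo made up most of them, with 89.8% and 85.1% of early granule counts in induced, 86.0% and 85.6% in uninduced and 97.0% and 92.0% in Control libraries. Per kilobase of exon, Mpo was also the highest in every group, at 278 ± 144 CPM per kb in induced, 939 ± 205 in uninduced and 134 ± 15.3 in Control libraries. Elane and Ctsg came next, with 212 ± 43.0 and 156 ± 36.4 CPM per kb in uninduced libraries, and their difference was not tested. Elane was above Ctsg in both uninduced libraries, at 242 and 181 against 182 and 130 CPM per kb. It was below Ctsg in both Control libraries, at 5.80 and 11.5 against 6.19 and 15.9 CPM per kb. In induced libraries the order differed between the replicates. Prtn3 followed at 69.0 ± 3.93 and Ms4a3 at 21.9 ± 8.78 CPM per kb in uninduced libraries.

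Relative to Mpo, the other early genes had fewer reads in Control than in the other groups. For every 100 reads of Mpo there were 3.33 and 7.44 reads of Elane in induced libraries, 6.42 and 6.57 in uninduced libraries and 1.15 and 2.69 in Control libraries. The same ratio for Prtn3 was 2.02 and 3.55 in induced, 3.35 and 4.22 in uninduced and 0.631 and 1.56 in Control libraries. Ctsg gave 5.34 and 5.59 reads in induced, 5.05 and 4.95 in uninduced and 1.29 and 3.91 in Control libraries, so that its ratio to Mpo was about the same in the induced and uninduced groups. Ms4a3 gave 0.643 and 0.989 reads in induced, 1.43 and 1.09 in uninduced and 0.0462 and 0.547 in Control libraries. For all 4 genes both Control libraries lay below all 4 libraries of the other groups, with Control replicate 1 the lowest. No test was made of these ratios, and they show an unequal change within the set and not that any of the genes stayed constant.

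**Figure D4:**
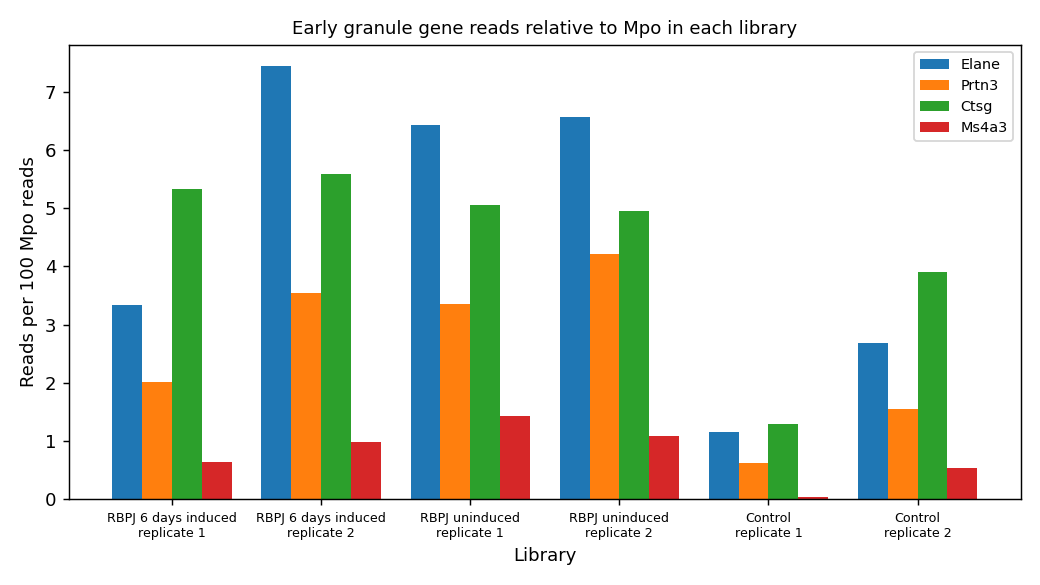
Reads of Elane, Prtn3, Ctsg and Ms4a3 per 100 reads of Mpo (vertical axis) in each of the 6 libraries, as bars from 0. The bars are shortest in the Control libraries, where Ctsg reaches 1.29 and 3.91, against 5.05 and 4.95 in the RBPJ uninduced libraries.

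Genes of the other granule lists, which also hold genes whose products are not granule proteins, moved less uniformly. Of 12 tested genes of azurophil granules and promyelocytes, 3 rose in uninduced relative to Control libraries and none fell by edgeR, with a median log2 fold change of 0.54. DESeq2 with all libraries called 5 of the 12. Over all genes it called 802 higher and 1032 lower, against 452 and 533 by edgeR. The 3 genes called by edgeR were Cd63 (5.03, edgeR adjusted p = 0.00199), Calr (1.53, edgeR adjusted p = 0.00181) and Igsf6 (4.21, edgeR adjusted p = 0.00589). Cd63 is a membrane protein of azurophil granules. Calr is a chaperone of the endoplasmic reticulum that binds the Mpo precursor, and Igsf6 is a myeloid surface protein. Prss57, a further azurophil serine protease located beside Elane and Prtn3, did not share their pattern, at 3.53 and 6.34 CPM in induced, 2.43 and 3.90 CPM in uninduced and 6.70 and 4.25 CPM in Control libraries. Its log2 fold change was -0.79 between uninduced and Control libraries (edgeR adjusted p = 0.641). After induction Calr fell by 0.94 on the log2 scale relative to uninduced libraries (edgeR adjusted p = 0.0260), the only member of this list that edgeR called there, and that call was lost without either induced library. DESeq2 called 2 of the 12 in the same comparison, and 4 reached an unadjusted p under 0.05 in edgeR. No share of all genes at that unadjusted p is given for this comparison. Igsf6 was not past the threshold between uninduced and Control without Control replicate 1 (edgeR adjusted p = 0.0695).

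Of 13 tested genes of specific and gelatinase granules, 3 rose in uninduced relative to Control libraries and none fell by edgeR, with a median of 2.89. They were Hp, which encodes haptoglobin (4.79, edgeR adjusted p = 0.0196), Cybb, the oxidase subunit gp91phox (4.34, edgeR adjusted p = 0.0441), and Anxa1, which encodes annexin A1 (1.62, edgeR adjusted p = 0.0342). These calls were lost without Control replicate 1, at edgeR adjusted p-values of 0.141 for Hp, 0.167 for Cybb and 0.115 for Anxa1. Hp was also lost without Control replicate 2 (edgeR adjusted p = 0.0526), Cybb without uninduced replicate 2 or either induced library (highest edgeR adjusted p = 0.0693), and Anxa1 without any library other than uninduced replicate 2 (highest edgeR adjusted p = 0.211). Hp stood at 1.32 and 5.87 CPM in induced, 13.04 and 17.4 CPM in uninduced and 0.305 and 0.884 CPM in Control libraries, so unlike Ngp and Ltf it was present in both uninduced libraries. Lcn2, which encodes neutrophil gelatinase-associated lipocalin and was named after its values were seen, stood at 0.530 and 0.186 CPM in induced, 3.65 and 10.6 CPM in uninduced and 0 and 0.177 CPM in Control libraries (6.54, edgeR adjusted p = 0.0508 for uninduced against Control). Camp, the cathelicidin gene of specific granules, was at 0 CPM in uninduced replicate 1 and at 7.36 CPM in replicate 2 and thus, like Ngp and Ltf, was found in replicate 2 alone of the uninduced pair. Of 6 other S100 genes tested, 0 were called between uninduced and Control libraries by edgeR or DESeq2 and 0 had an unadjusted p under 0.05, with S100a1 at 1.26 (adjusted p = 0.327) and S100a13 at 0.32 (adjusted p = 0.832).

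Among 12 regulators of granulocyte formation, 2 rose in uninduced relative to Control libraries and none fell by edgeR, and DESeq2 called 4. Cebpa, the factor that opens the granulocyte programme, stood at 9.36 and 21.7 CPM in induced, 24.5 and 27.5 CPM in uninduced and 1.75 and 1.42 CPM in Control libraries (4.004, edgeR adjusted p = 0.00365 for uninduced against Control). Irf8, a factor that favours monocytes over granulocytes, stood at 48.0 and 55.3 CPM in induced, 38.8 and 71.1 CPM in uninduced and 15.4 and 11.3 CPM in Control libraries (2.03, edgeR adjusted p = 0.0106), a call lost without either Control library. Cebpe, the factor of specific granule genes, had a log2 fold change of 2.66 (SE 1.38, edgeR adjusted p = 0.351) on 3.65 and 5.35 CPM in uninduced and 1.29 and 0 CPM in Control libraries. Spi1, which encodes PU.1, stood at 63.0 and 67.8 CPM in induced, 48.3 and 42.4 CPM in uninduced and 69.8 and 57.1 CPM in Control libraries. Cebpe and Spi1 were named after their values were seen. Of 12 tested receptor genes and mature neutrophil genes, 4 rose and none fell by edgeR. Among them were Csf3r, the receptor for granulocyte colony-stimulating factor (2.42, edgeR adjusted p = 0.0114), Csf2rb2, a cytokine receptor chain (3.06), and Fcgr3, an Fc receptor (2.78). Of these 4, 1 passed without Control replicate 1 and 0 without Control replicate 2, where the edgeR adjusted p of Csf3r was 0.0849.

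After induction few of these genes were called. In induced against Control libraries, counts at an unadjusted p under 0.05 stand beside 5.17% of all genes tested. For induced against uninduced libraries that share is not given here, and those counts are not read against a background. Relative to uninduced libraries, edgeR called 0 of 13 specific and gelatinase granule genes (2 with an unadjusted p under 0.05, 1 by DESeq2), 0 of 12 regulators (2 and 0) and 0 of 12 receptor and mature neutrophil genes (3 and 0). Relative to Control, it called 0 of 12 azurophil and promyelocyte genes (5 with an unadjusted p under 0.05, 3 by DESeq2), 0 of 13 specific and gelatinase granule genes (3 and 0), 0 of 12 regulators (3 and 2) and 0 of 12 receptor and mature neutrophil genes (5 and 1). Cebpa (3.26, edgeR adjusted p = 0.0516) and Cd63 (3.46, edgeR adjusted p = 0.0529) lay nearest to the threshold among the named genes of these lists in induced against Control libraries. Cebpa, like the early granule genes, had both induced libraries between those of the other groups.

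Genes of mature neutrophils were unevenly represented. The 15 listed receptor and mature neutrophil genes summed to 219 and 295 CPM in induced, 392 and 265 CPM in uninduced and 159 and 136 CPM in Control libraries, and 2 and 3, 3 and 0, and 4 and 2 of them were at 0 in these libraries. Ly6g was at 0 CPM in 5 libraries and at 1.23 CPM in uninduced replicate 2, and Retnlg at 0 CPM in 4 libraries, at 4.24 CPM in uninduced replicate 2 and at 0.531 CPM in Control replicate 2. Cxcr2, a chemokine receptor of neutrophils, stood at 5.39 and 11.6 CPM in induced, 5.91 and 6.80 CPM in uninduced and 1.07 and 3.89 CPM in Control libraries. Trem1, a receptor of neutrophils and monocytes that was named after its values were seen, stood at 0.795 and 3.82 CPM in induced, 12.2 and 11.1 CPM in uninduced and 3.20 and 5.13 CPM in Control libraries. As with the early granule genes, mast cell and basophil levels were higher in uninduced than in Control libraries. There, edgeR called 7 of the 8 members that could be tested. Some of these calls were lost without Control replicate 1 or without Control replicate 2. The 10 listed mast cell and basophil genes summed to 391 and 346 CPM in induced libraries. Their sums were 1038 and 682 CPM in uninduced and 85.2 and 70.9 CPM in Control libraries. In the induced pair this sum was higher in replicate 1. The early granule genes ran the other way in that pair, with sums of 672 and 1529 CPM. The basophil protease gene Mcpt8 stood at 1.06 and 1.21 CPM in induced, 7.998 and 3.90 CPM in uninduced and 0.457 and 1.06 CPM in Control libraries, and Prss34, another, was at 0 CPM in all but Control replicate 1, which had 0.0761 CPM. Of 10 tested monocyte and macrophage genes 2 rose by edgeR, Ms4a6c and Ccr2, DESeq2 called 4, and the 13 listed summed to 143 and 205 CPM in induced, 160.3 and 209 CPM in uninduced and 91.7 and 99.4 CPM in Control libraries. Of 5 tested eosinophil genes 0 were called by edgeR or DESeq2 and 0 had an unadjusted p under 0.05, and Epx, the eosinophil relative of Mpo, was at 0 and 8.80 CPM in uninduced libraries and at 0.381 and 1.59 CPM in Control libraries. Of 11 erythroid genes 4 rose by edgeR. All 9 B-lineage genes had fold changes above 0 (median 4.85), and 8 had an unadjusted p under 0.05. No share of all genes at that unadjusted p is given for uninduced against Control libraries. By edgeR Cd79a alone was called, and DESeq2 called 3. The call of Cd79a was lost without uninduced replicate 2 and also without either induced or either Control library. Of 13 tested DN1 and T-lineage genes 6 fell and none rose by edgeR. The part of these cell types in the level of the granule genes was not tested.

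Of 42 tested genes listed around the granule genes at 5 loci, edgeR called 7 higher and 1 lower in uninduced relative to Control libraries, which is 16.7% and 2.38%, beside 2.49% and 2.93% of all genes tested. The listed genes include mast cell and monocyte genes, and the part of these cell types was not tested. Of 9 tested genes around Elane and Prtn3, 2 rose in uninduced relative to Control libraries and none fell by edgeR. They were Plppr3 (2.25, edgeR adjusted p = 0.00550), which overlaps Prtn3 and may share its reads, and Arid3a (2.43, edgeR adjusted p = 0.00569), and both calls were lost without Control replicate 1. Near Ctsg 2 of 7 tested genes rose, the mast cell chymase genes Cma1 (7.14, edgeR adjusted p = 0.00887) and Mcpt4 (6.03, edgeR adjusted p = 0.0204), both not past the threshold without Control replicate 1 or without Control replicate 2. Near Mpo 0 of 7 tested genes were called by edgeR or DESeq2 and 0 had an unadjusted p under 0.05, with Mtmr4 at 0.62 (adjusted p = 0.309) and Tspoap1 at 0.48 (adjusted p = 0.376). In the Ms4a cluster 2 of 8 tested genes rose, Ms4a2, a chain of the IgE receptor (6.95, edgeR adjusted p = 0.00193), and Ms4a6c (2.89, edgeR adjusted p = 0.00684). Around Ngp and Ltf, of 11 tested genes the chemokine receptor gene Ccr2 rose (2.10, edgeR adjusted p = 0.00810) and Ccr9 fell (-4.09, edgeR adjusted p = 0.00422), and Ccr2 was not past the threshold without Control replicate 1.

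The genes whose levels over the 6 libraries were most like the mean profile of the early genes were Irak3, Smyd2, Mrps14, Anxa3 and Ap3s1, with Pearson correlations of log2(CPM + 1) from 0.98 to 0.99 over 6 libraries in 3 groups. Irak3 stood at 9.45 and 20.3 CPM in induced, 37.4 and 26.1 CPM in uninduced and 6.09 and 6.55 CPM in Control libraries. Anxa3 stood at 7.86 and 14.4 CPM in induced, 42.2 and 26.4 CPM in uninduced and 2.44 and 2.48 CPM in Control libraries. Smyd2 and Mrps14 followed the same order over a narrow range, with Smyd2 between 28.6 and 49.7 CPM. For the mean of Ngp and Ltf the most alike were Smim13, Zc3h13, Fam129c, Dot1l and Mtss1 and all 5 were highest in uninduced replicate 2. Fam129c stood at 3.003 and 4.75 CPM in induced, 3.999 and 70.1 CPM in uninduced and 4.57 and 6.72 CPM in Control libraries. The 6 points of each correlation share their groups and the scaling of the libraries.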

How the data were processed

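RNA was sequenced from 6 libraries of sorted thymus cells. The authors deposited whole-number read counts per Ensembl gene for each library, without normalization, and HISAT2, StringTie, HTSeq and mm10 as the build come per the submitters' processing notes, with no role, version, strand setting or annotation release. Symbols, coordinates and exon lengths are those of GENCODE M21 (GRCm38, equal to mm10), which matched 47310 of 47729 IDs, and promoter windows from RefSeq on GRCm38.p6. In R 4.3.3, genes were kept by filterByExpr (minimum count 10, minimum total count 15), leaving 18174, and libraries were scaled by TMM (factors 0.824 to 1.13), from which CPM were computed. All 6 libraries entered 1 quasi-likelihood fit in edgeR 4.0.16 with each group's mean as a term, leaving 3 residual degrees of freedom. The fit assumes a spread shared by the groups, although chi-square per degree of freedom between replicates was 54.1 in RBPJ uninduced, 16.4 in RBPJ 6 days induced and 20.6 in Control. P-values were adjusted by Benjamini-Hochberg over all genes tested in a comparison, the threshold was 0.05, and the standard error is the fold change divided by the square root of F. With totals of 5098927 to 12932928 counts per library, a gene with 3 counts has 0.228 to 0.531 CPM. The alternatives were DESeq2 1.42.0, RLE size factors, no filter, fits to the 4 libraries compared, a replicate block and fits without each library in turn. The granule genes and the 16 comparison lists were chosen with earlier results of these data known. Named genes were all granule genes, up to 3 members of each list with the smallest p among those called between RBPJ uninduced and Control (up to 2 where none was), listed chromosomal neighbours and the 5 genes most alike in profile. Other genes are named as chosen after their values were seen, or as cell type markers.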

Additional observations from a re-analysis of the deposited data

How the results depend on the processing

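For RBPJ uninduced vs Control, 5 granule genes passed with all 6 libraries, as with RLE size factors, the replicate block, the 4 compared libraries and DESeq2, and 3 to 7 passed when 1 library was left out. For RBPJ 6 days induced vs RBPJ uninduced, 1 passed, and 0 with the 4 compared libraries, 4 with the replicate block, 3 by DESeq2 and 0 to 3 when 1 library was left out. For RBPJ 6 days induced vs Control, 0 passed, and 2 with the 4 compared libraries, 3 with the replicate block, 2 by DESeq2 and 0 to 3 when 1 library was left out. With no low-count filter, 35696 genes entered, and the prior degrees of freedom that edgeR estimated were infinite, against 6.35. In these comparisons 9, 9 and 5 granule genes then passed. Ngp, Ltf and S100a9 passed in uninduced vs Control and in induced vs uninduced, although uninduced replicate 1 had no count of them. S100a8 also passed in both, with 2 counts in that library. None of these later genes passed in induced vs Control. The cause was not tested.

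The labels do not state that replicate numbers pair libraries. The correlation of same-numbered deviations was 0.0156 for induced with uninduced, 0.0145 for induced with Control and -0.0251 for uninduced with Control. With 2 libraries a group, these values cannot show whether same-numbered libraries were collected or processed together.

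Directions turned round without RBPJ uninduced replicate 2 for Ngp (-5.96) and Ltf (-6.59) against Control, for Ngp (5.13) and Ltf (4.65) in induced vs uninduced, and for Epx (-6.19) and Siglecf (0.23) against Control. Ltf was at 0.0378 in induced vs Control without Control replicate 2, and Siglecf at 0.0052 in uninduced vs Control without Control replicate 1. With each of the 6 libraries left out in turn, these fold changes ran from -5.96 to 4.65 for Ngp, -6.59 to 5.54 for Ltf, -6.19 to 3.38 for Epx and -1.42 to 0.23 for Siglecf in uninduced vs Control. They ran from -5.77 to 5.13 for Ngp and -10.1 to 4.65 for Ltf in induced vs uninduced, and from -6.49 to 0.0378 for Ltf in induced vs Control. None of the turned values passed the threshold, and the cause was not tested.

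Over all genes, uninduced vs Control gave 452 higher and 533 lower, against 725 and 815 with no filter, 147 and 200 with the 4 compared libraries, 802 and 1032 by DESeq2, and 90 to 946 and 170 to 1151 with 1 library left out. Induced vs uninduced gave 282 and 75, against 675 and 314, 163 and 36, 744 and 497, and 42 to 889 and 3 to 535, with 133 lower under the block. Induced vs Control gave 34 and 0, against 247 and 57, 193 and 58, 173 and 49, and 4 to 199 and 0 to 43, with 101 and 7 under the block. With 2 libraries a group, differences of the later genes are not detectable beyond the spread of the uninduced pair.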
